A study of Bos taurus with 37 samples.

Results

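The 8 genes described here build the epithelium of the bovine blastocyst: the cadherin gene CDH1, the claudin genes CLDN4, CLDN6 and CLDN7, the tight junction genes OCLN and TJP1, the ion pump subunit gene ATP1B1 and the water channel gene AQP3. They were taken by symbol from the 22628 rows of a table of FPKM values (fragments per kilobase of transcript, scaled to the mapped fragments of the library). Each symbol had 1 row. The 8 genes are set beside 101 rows of related genes: other claudins, tight junction and polarity genes, adherens junction and desmosome genes, subunits of the Na/K-ATPase and other ion transporters, and other aquaporins.

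The blastocyst forms when the outer cells of the embryo, the trophectoderm, become a sealed epithelium and pump fluid inwards. E-cadherin, the product of CDH1, holds the cells together at adherens junctions. Claudins and occludin form the strands of the tight junction that seals the space between cells, and TJP1 (ZO-1) ties those strands to the cytoskeleton. The Na/K-ATPase, built from an alpha and a beta subunit, drives sodium across the layer, water follows, and aquaporins let the water pass.

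Single blastocysts were profiled by RNA sequencing, with male and female embryos kept apart throughout. There were 6 male and 6 female blastocysts from in vitro fertilisation (IVF), 6 male and 6 female blastocysts from somatic cell nuclear transfer (SCNT), and 6 male and 5 female sham blastocysts. In SCNT an enucleated oocyte was fused with 1 adult ear skin fibroblast and then activated, so that the embryo carried the donor's genome. Embryos with 60 to 80 blastomeres, reached on days 6 to 8, were taken. A sham embryo was an IVF zygote whose zona was torn, whose polar body and some ooplasm were removed, and which was activated with ionomycin and DMAP while it kept both of its own pronuclei. The donor fibroblasts of each sex gave 1 library, which has no replicate. Male and female libraries were pooled and sequenced on separate flow cells, and the 2 SCNT sexes came from different donor cells, so sex cannot be told apart from flow cell or donor. The labels do not give the breed, the animals or the culture batches, so the p-values measure the spread between these embryos.

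Summed FPKM was 414105 to 601000 per library, and 12318 to 15321 rows were above 0 in the blastocysts. The table does not hold the reads per library. Most male sham libraries had a lower share of mapped reads than the other male libraries, as listed with the study, and the part of this in the male sham differences was not tested. Female SCNT 5 and 6 had the fewest rows above 0 (12318 and 12403). Their median correlation with the other embryos of their group was 0.868 and 0.851, against a median of 0.891 over the 35 blastocysts. Male sham 1 (0.868) and male sham 2 (0.870) were close to female SCNT 5 in this. Results that rest on female SCNT 5 and 6 are given with and without them. Of 13 trophectoderm markers, 12 were above 1 FPKM on average in every blastocyst group (ELF5 was not), and all 6 inner cell mass markers were. Summed over the embryo, 11 fibroblast markers reached 2.32 to 36.4 FPKM in blastocysts, against 12486 and 7931 FPKM in the male and female fibroblasts, and S100A4 was listed at 0 in every blastocyst.

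In every blastocyst group CDH1 was the most abundant of the 8 genes and ATP1B1 the least, on the FPKM scale, which is per length of transcript. Group means of CDH1 were 596 to 1570.2 FPKM, which placed it between rank 35 and rank 87 among all rows. CLDN4, CLDN6, CLDN7, OCLN and TJP1 lay between 70.1 and 389 FPKM, AQP3 between 23.6 and 81.1 FPKM, and ATP1B1 between 4.69 and 14.4 FPKM. The order of the middle genes was not settled within a group: in male IVF embryos CLDN4 (217 FPKM) exceeded OCLN (216 FPKM) in 3 of 6 embryos, and TJP1 (147 FPKM) exceeded CLDN7 (141 FPKM) in 3 of 6. CDH1 exceeded the gene next in order in every embryo of each group, and female IVF was the only group in which the 2 ranges overlapped. AQP3 exceeded ATP1B1 in every blastocyst but 1 of the male IVF group.

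The fibroblasts separated these genes into 3 kinds. CLDN4, CLDN6, CLDN7 and AQP3 were at or below 1.38 FPKM in both donor libraries, and CLDN4 in the male and AQP3 in the female library were listed at 0. CDH1 (6.75 and 5.22 FPKM), OCLN (14.9 and 20.1 FPKM) and TJP1 (40.1 and 27.1 FPKM) were detected there, each below its lowest blastocyst. ATP1B1, at 10.3 and 17.0 FPKM, was the exception, and lay within the range of the blastocysts.

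**Figure D1:**
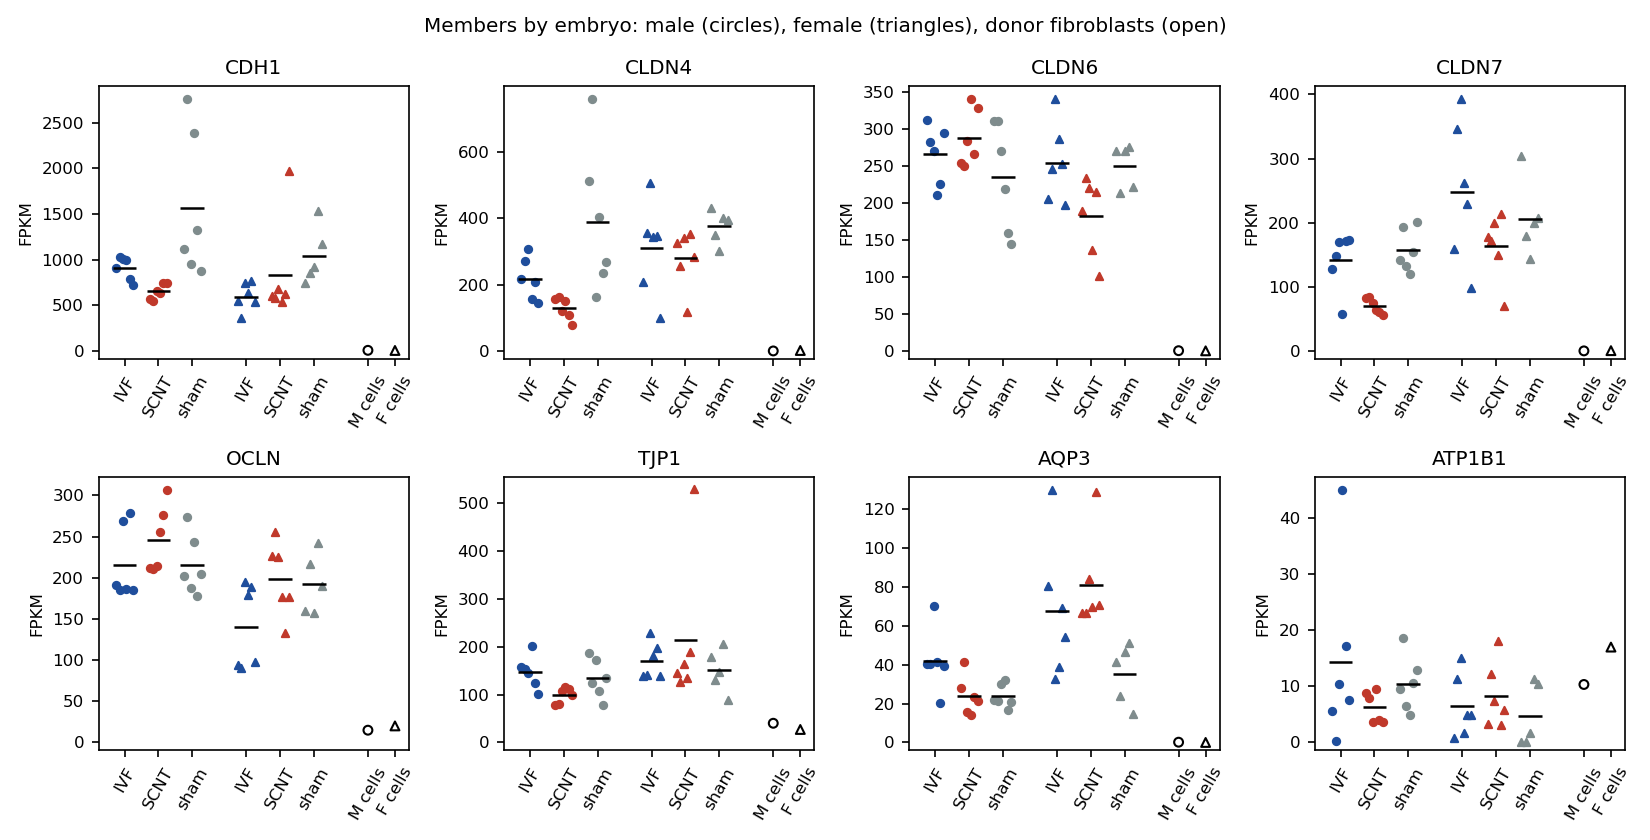
FPKM of the 8 genes (y axes, linear, each with its own scale) in every library. Circles are male and triangles female embryos, horizontal bars are group means, and open symbols are the single donor fibroblast libraries (M cells, F cells). CLDN4 in male SCNT embryos lies low in its panel. CDH1 in male SCNT embryos lies below all male sham embryos but within the range of female IVF embryos. For TJP1 and CDH1, 1 female SCNT embryo lies far above the rest of its group. The fibroblasts are near 0 except for ATP1B1, TJP1 and OCLN.

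Differences between groups were tested with limma on log2(FPKM + 1) over all rows with a mean above 0.1 FPKM, and a gene was called where its Benjamini-Hochberg adjusted p was under 0.05. Fold changes are log2 differences of FPKM + 1, so that the change of a low gene is understated. All 8 genes passed the filter in each comparison. The embryos are whole, so that fewer cells of a type and less RNA per cell cannot be told apart in any of these differences.

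Most of the calls among the 8 genes were in male embryos, between SCNT and sham. There CDH1, CLDN4 and CLDN7 were lower in SCNT, 3 genes of 8 where 6.13% of the genes tested were called lower. Against IVF, male SCNT embryos had 1 gene called lower, CLDN7, where 6.98% of all genes were called and 3.64% called lower. In females AQP3 was higher in SCNT than in sham, 1 gene of 8 beside 5.21% of all genes called higher. No gene of the 8 was called by limma between female SCNT and IVF, where 0.321% of all genes were called. None was called between male sham and IVF (12.1% of all genes called) or between female sham and IVF (13.5% called). At an unadjusted p under 0.05, female SCNT against IVF had 1 of the 8, beside 1664 of all 15256 genes tested. Male sham against IVF had 3 of 8, beside 3790 of 14902 genes. Female sham against IVF had 2 of 8, beside 4172 of 15259 genes. The median log2 difference of the 8 genes was -0.51 for male SCNT against IVF and -0.52 for male SCNT against sham, beside -0.01 and 0.01 over all genes tested. In females those medians were 0.25 and -0.17, beside -0.04 and 0.04. The median of 0.25 lay between TJP1 (0.14) and CDH1 (0.35). Without female SCNT 5 and 6 these were -0.24 and 0.05, and CLDN4 was -0.20. The sign of that median therefore rests on these embryos. The comparisons within a sex share their groups and are not independent of each other.

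**Figure D2:**
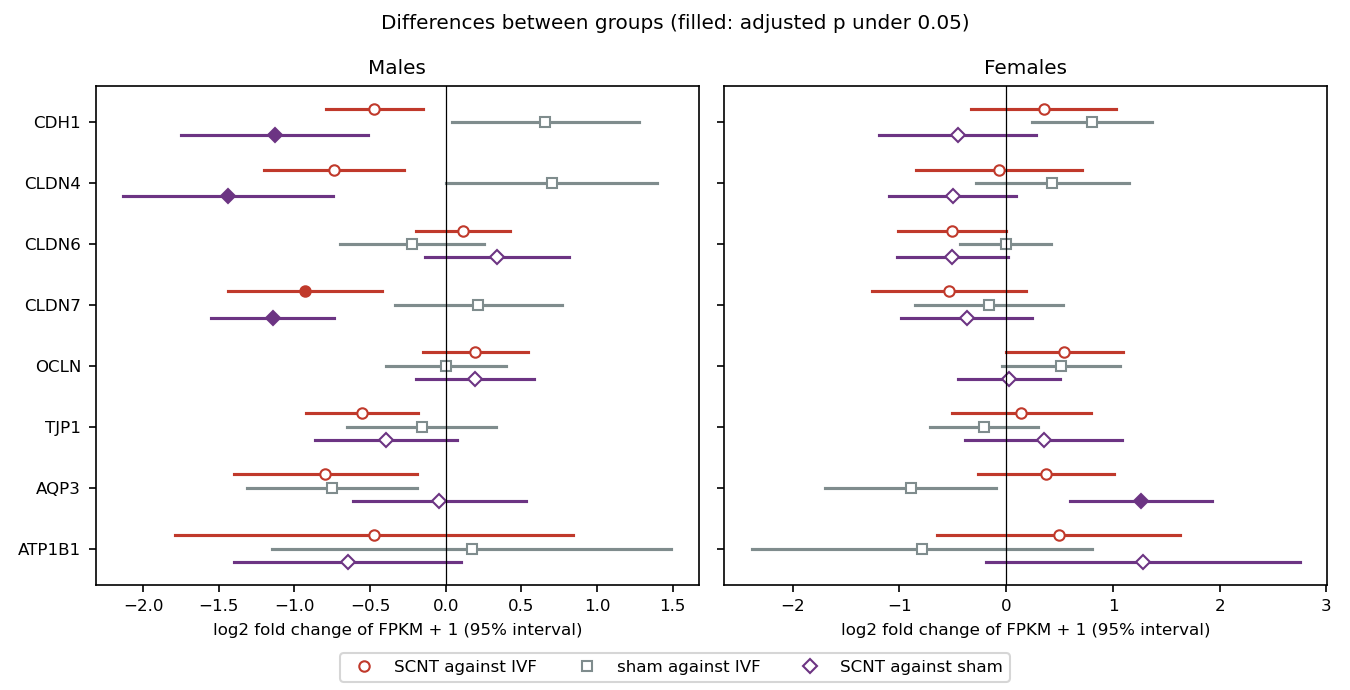
Log2 fold change of FPKM + 1 (x axes) with its 95% interval from limma for the 8 genes, in males (left) and females (right). Red circles are SCNT against IVF, grey squares sham against IVF and purple diamonds SCNT against sham; filled symbols have an adjusted p under 0.05. The filled symbols are CLDN7 in males against both IVF and sham, CDH1 and CLDN4 in males against sham, and AQP3 in females against sham.

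CDH1 fell in male SCNT embryos relative to sham embryos. Its lowest, median and highest values were 553, 649 and 746 FPKM in the 6 male SCNT embryos, 719, 950.2 and 1027 FPKM in the 6 male IVF embryos, and 879, 1221 and 2766 FPKM in the 6 male sham embryos. The SCNT and sham ranges did not overlap, and male sham 2 and 4 were the 2 highest embryos, at 2766 and 2384 FPKM. The difference between SCNT and sham was -1.13 (SE 0.29, limma adjusted p = 0.0178), and it stayed called without each single embryo. Between male SCNT and IVF, 5 of the 8 genes had an unadjusted p under 0.05, beside 3087 of all 14906 genes tested. CDH1 was among the 5, but its difference of -0.47 (SE 0.15) had a limma adjusted p of 0.0731.

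In females CDH1 ran from 356 to 768 FPKM in IVF embryos, with a median of 587 FPKM. The 5 female sham embryos were at 742, 857, 919, 1537 and 1167 FPKM, so that only the lowest of them fell within the IVF range. The difference between sham and IVF was 0.80 (SE 0.27) with a limma adjusted p of 0.0574; it was 0.0421 without female sham 1, and the range over all alternatives was 0.0349 to 0.156. In male embryos the same comparison gave 0.66 (SE 0.29, adjusted p = 0.165). Female SCNT embryos had a median of 617 FPKM, and 5 of 6 lay between 538 and 678 FPKM while female SCNT 6 was at 1976 FPKM. Between female SCNT and sham the difference was -0.45 (SE 0.35, adjusted p = 0.445), and -0.75 (adjusted p = 0.0656) without female SCNT 5 and 6.

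CDH1 made up 96.6% to 99.9% of the summed FPKM of CDH1, CDH2 and CDH3 in the blastocysts. In the fibroblasts it was 2.25% in the male and 6.34% in the female library, where CDH2, the cadherin of mesenchymal cells, was at 289 and 68.9 FPKM. CDH3 (P-cadherin) was a minor part of the sum in embryos, with group means of 4.71 to 13.3 FPKM.

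CLDN4, CLDN6 and CLDN7 together were 77.7% to 98.0% of the summed FPKM of all claudin genes in the 35 blastocysts, with a mean of 93.6%. In the fibroblasts they were 1.31% and 4.93% of a claudin sum of 33.1 and 40.1 FPKM. The sum of the 3 genes was 434 to 555 FPKM in male SCNT embryos, 424 to 746 FPKM in male IVF embryos and 548 to 1263 FPKM in male sham embryos. In females it was 403 to 779 FPKM in SCNT, 393 to 1240.3 FPKM in IVF and 714 to 1003 FPKM in sham embryos.

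**Figure D3:**
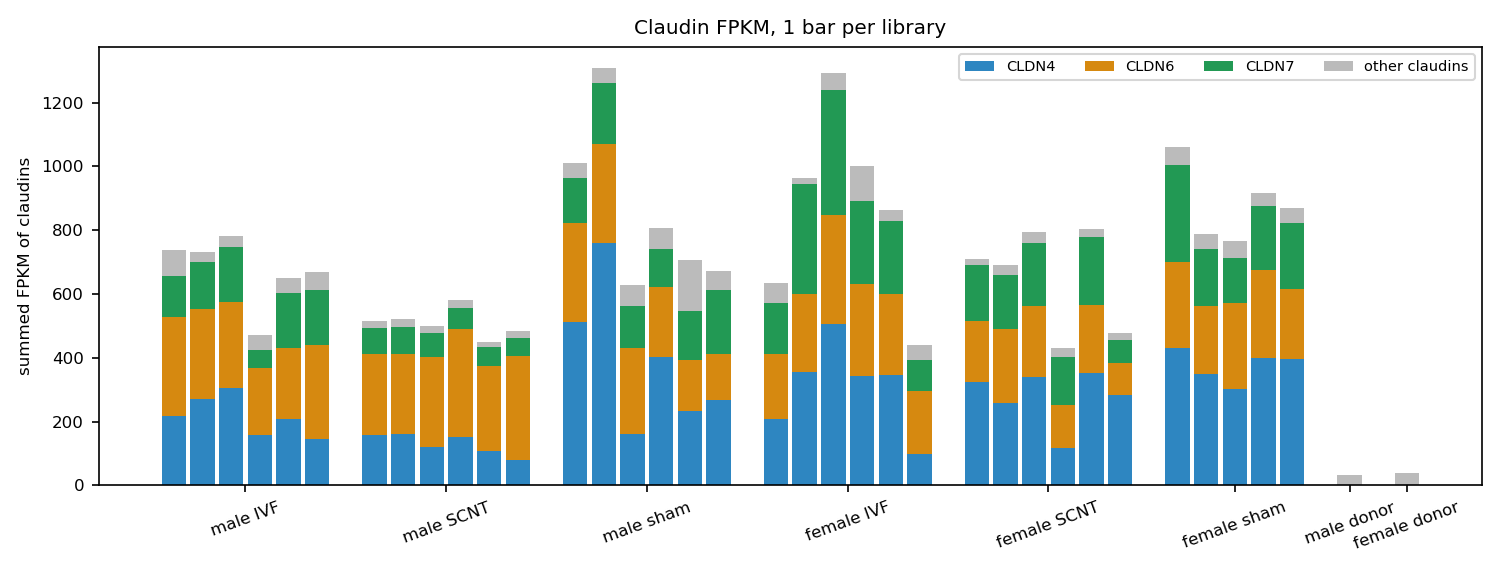
Summed FPKM of all claudin genes (y axis, from 0), 1 bar per library in the order of the replicate numbers, divided into CLDN4, CLDN6, CLDN7 and all other claudins. The 6 male SCNT bars have a large CLDN6 part beside small CLDN4 and CLDN7 parts, and the fibroblast bars, at 33.1 and 40.1 FPKM, are almost all other claudins.

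CLDN4, a claudin of many simple epithelia, showed the largest difference among the 8 genes that passed the test. It was at 78.7, 135 and 162 FPKM (lowest, median and highest) in male SCNT embryos and at 161, 335 and 759.5 FPKM in male sham embryos. Only male SCNT 2 (162 FPKM) reached the lowest sham embryo, male sham 3 (161 FPKM). The difference was -1.44 (SE 0.33, limma adjusted p = 0.00819) and stayed called without each single embryo. Male IVF embryos lay between, at 146, 212 and 306 FPKM. SCNT against IVF gave -0.74 (SE 0.22, adjusted p = 0.0532), which fell under 0.05 without male IVF 4 (0.0412), male IVF 6 (0.0378) or male SCNT 2 (0.0459). It was called in 5 of 20 alternatives, with adjusted p up to 0.197. In females the 3 groups overlapped, at 117 to 351 FPKM in SCNT, 98.7 to 507 FPKM in IVF and 302 to 429.6 FPKM in sham embryos.

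CLDN7 was lower in male SCNT embryos than in either other male group. Its values were 55.7, 69.2 and 83.5 FPKM in male SCNT, 57.7, 159 and 172 FPKM in male IVF and 120 to 200.4 FPKM in male sham embryos. Male SCNT and sham did not overlap, and against IVF a single embryo, male IVF 4 at 57.7 FPKM, lay within the SCNT range while the other 5 were at 127 FPKM or more. The difference from sham was -1.14 (SE 0.19, limma adjusted p = 0.00112) and was called without each single embryo. The difference from IVF was -0.93 (SE 0.24, adjusted p = 0.0293); it missed the threshold without any 1 of male IVF 2, 3, 5 or 6 or male SCNT 4, 5 or 6, with adjusted p up to 0.0631. It was also missed with no filter on low values (0.0535) and with no trend in limma (0.0562), the range over all alternatives being 0.000773 (without male IVF 4) to 0.0631. In females CLDN7 was at 164 FPKM ± 50.8 (SD, n = 6) in SCNT, 248 ± 111 (n = 6) in IVF and 206 ± 59.7 (n = 5) in sham embryos, with no call.

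CLDN6, known as a claudin of early epithelia, did not follow CLDN4 and CLDN7. It was at 250.2 to 341 FPKM in male SCNT, 210.3 to 311 FPKM in male IVF and 144 to 311 FPKM in male sham embryos, and these ranges overlapped widely. The 2 male differences of SCNT were 0.12 (95% interval -0.20 to 0.43) from IVF and 0.34 (-0.14 to 0.81) from sham. As a share of CLDN4, CLDN6 and CLDN7, CLDN6 was 59.1% ± 7.50 (SD, n = 6) in male SCNT, 43.1% ± 5.91 (n = 6) in male IVF and 31.1% ± 8.81 (n = 6) in male sham embryos. The male SCNT range of 50.5% to 70.9% lay above the whole IVF (36.2% to 49.6%) and sham (23.5% to 47.8%) ranges. In females the shares were 29.2% ± 4.77, 33.6% ± 8.76 and 30.3% ± 4.53 in SCNT (n = 6), IVF (n = 6) and sham (n = 5). Female SCNT embryos had 101 to 233 FPKM of CLDN6, with female SCNT 6 the lowest, and the difference of -0.51 from IVF (SE 0.24) had an adjusted p of 0.454.

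OCLN, the gene of occludin, had male groups that overlapped, with no call. Its group means were 216 FPKM ± 44.9 in IVF, 246 ± 40.4 in SCNT and 215 ± 36.4 in sham embryos (SD, n = 6 each). In females 3 of the 6 IVF embryos lay near 94 FPKM (90.1, 94.5 and 97.8 FPKM) and 3 between 179 and 195 FPKM. Female SCNT embryos were at 132 to 255 FPKM and sham embryos at 158 to 242 FPKM. The differences from IVF were 0.54 for SCNT (95% interval 0.00 to 1.09, limma adjusted p = 0.458) and 0.52 for sham (-0.04 to 1.07, adjusted p = 0.218).

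TJP1 was at 78.0, 104 and 116 FPKM in male SCNT embryos and at 102, 149.6 and 201 FPKM in male IVF embryos. The difference of -0.55 (SE 0.17) had a limma adjusted p of 0.0700, and 0.0374 without male IVF 6, the lowest of the IVF group. It was called in only 1 of 20 alternatives, with adjusted p up to 0.228. Male sham embryos, at 78.7 to 186 FPKM, overlapped both. Among females, 5 of 6 SCNT embryos had 127 to 188 FPKM and female SCNT 6 had 528 FPKM. With that embryo the difference from IVF was 0.14, without it -0.16 and without female SCNT 5 and 6 -0.24, with adjusted p of 0.883, 0.783 and 0.677.

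ATP1B1, a beta subunit of the Na/K-ATPase, was low and scattered. Male IVF embryos were at 0.318, 9.06 and 45.0 FPKM (lowest, median and highest), male SCNT embryos at 3.64 to 9.54 FPKM and male sham embryos at 4.93 to 18.6 FPKM. The 5 female sham embryos were at 10.4, 11.4 and 1.67 FPKM and, for the other two, listed at 0. Female IVF embryos ran from 0.814 to 15.0 FPKM and female SCNT embryos from 3.18 to 18.0 FPKM. Every pair of groups overlapped, the intervals were wide (from -1.79 to 0.84 for male SCNT against IVF and from -0.19 to 2.75 for female SCNT against sham), and a difference was not detectable at this spread.

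ATP1B1 was also the smallest part of the beta subunits on average. Over the blastocysts it was 7.33% of the summed FPKM of ATP1B1, ATP1B2 and ATP1B3, where ATP1B3 was 64.8% and ATP1B2 27.9%. In the fibroblasts ATP1B1 was 27.4% and 44.0% and ATP1B2 was listed at 0.

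ATP1B3, the most abundant of the beta subunits over all blastocysts, differed between sham and the other male embryos. It fell in male sham relative to male IVF embryos (45.7 against 110.2 FPKM; -1.34, SE 0.28, limma adjusted p = 0.00435). Relative to sham, male SCNT embryos had more ATP1B3 (1.59, SE 0.30, adjusted p = 0.00237). In females the differences were -0.97 for sham against IVF (adjusted p = 0.0502) and 0.67 for SCNT against sham (adjusted p = 0.0998). ATP1B2 was called in none of the 6 comparisons, with group means of 17.9 to 79.6 FPKM.

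**Figure D4:**
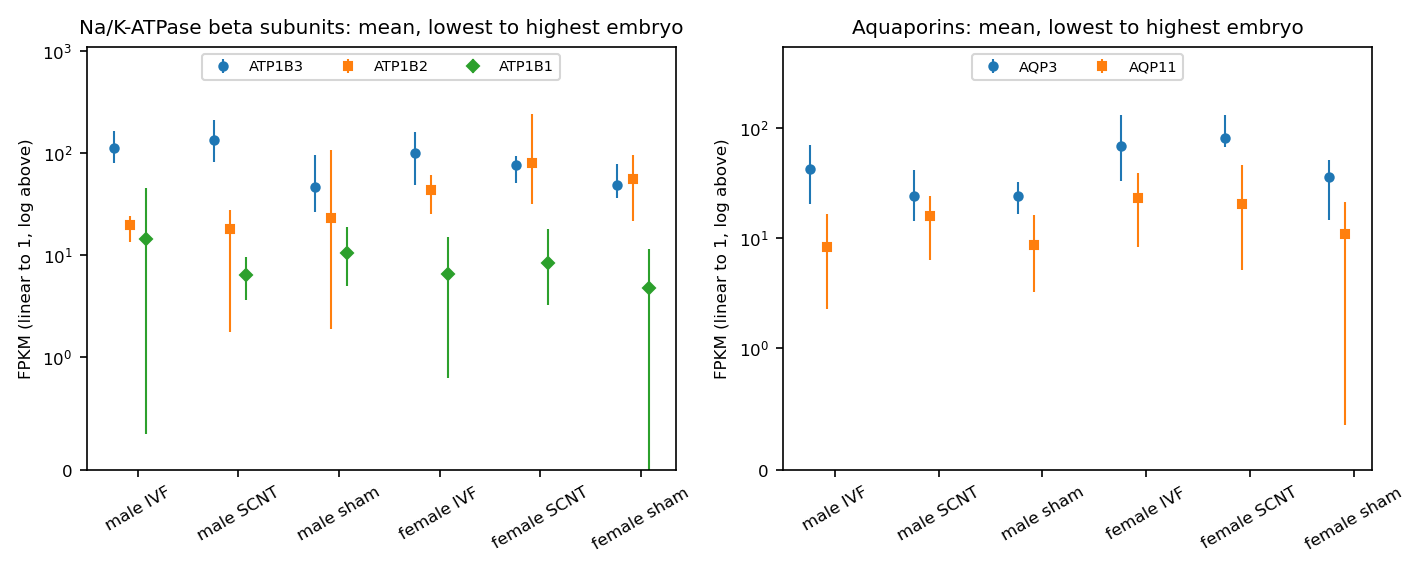
Group mean FPKM (symbols) with the range from the lowest to the highest embryo (lines) for 3 beta subunits of the Na/K-ATPase (left) and for AQP3 and AQP11 (right), in 6 blastocyst groups. The y axes are linear up to 1 FPKM and logarithmic above; ATP1B1 lies below ATP1B3 in each group, and the line of ATP1B1 reaches 0 in female sham embryos.

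AQP3, a channel for water and glycerol, was higher in female SCNT than in female sham embryos. The 5 female sham embryos were at 41.4, 23.8, 46.3, 51.0 and 14.4 FPKM, and the 6 female SCNT embryos at 66.3, 70.1 and 129 FPKM (lowest, median and highest). The groups did not overlap, and the difference was 1.27 (SE 0.31, limma adjusted p = 0.0163). It stayed called without each single embryo and without female SCNT 5 and 6 (1.13, adjusted p = 0.0414), but not with the replicate number as a block (1.30, adjusted p = 0.0751). Female IVF embryos, at 32.4, 61.7 and 129.7 FPKM, overlapped both groups, and the sham embryos at 23.8 and 14.4 FPKM lay below the IVF range.

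In male embryos the median of AQP3 was highest in IVF, and no difference between the male groups was called. The values were 20.4, 40.4 and 69.9 FPKM in IVF, 14.0, 22.3 and 41.1 FPKM in SCNT and 16.4, 21.5 and 31.9 FPKM in sham embryos. SCNT and sham differed by -0.04 (95% interval -0.61 to 0.53). The differences from IVF were -0.80 for SCNT (SE 0.29, limma adjusted p = 0.113) and -0.75 for sham (SE 0.27, adjusted p = 0.0784). Both fell under 0.05 without male IVF 5, the lowest embryo of its group (0.0424 and 0.0221). The first did so without male SCNT 2 too (0.0479). Of 20 alternatives each, the first was called in 2 and the second in 1, with adjusted p up to 0.222 and 0.170.

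AQP3 was 72.9% of the summed aquaporin FPKM on average over the blastocysts, and AQP11 was the next with 14.5 FPKM. AQP4 followed at 0.168 FPKM. None of the other aquaporins was called by limma in a comparison between 2 groups, with at most 1 at an unadjusted p under 0.05. AQP11 differed by 0.99 between male SCNT and IVF embryos (95% interval 0.08 to 1.90, adjusted p = 0.200).

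Whether the SCNT or sham difference itself differed between the sexes was tested by an interaction. No gene of the 8 was called by limma for SCNT minus IVF (1.91% of all genes called) or for sham minus IVF (1.22% called). At an unadjusted p under 0.05, SCNT minus IVF had 3 of the 8, beside 2347 of all 15425 genes tested. Sham minus IVF had 0 of 8, beside 1875 of 15375 genes. The sizes, females minus males, were 1.16 for AQP3 (SE 0.43, adjusted p = 0.174), 0.82 for CDH1 (SE 0.35, adjusted p = 0.256) and -0.63 for CLDN6 (SE 0.27, adjusted p = 0.265) in the SCNT contrast. Without female SCNT 5 and 6 these sizes were 1.03, 0.52 and -0.50 (adjusted p = 0.315, 0.381 and 0.383). The call of CLDN7 against IVF in males alone is therefore not shown to differ between the sexes. For SCNT against sham, which holds the other calls, a difference between the sexes was not tested.

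Of the related genes with a testable level, 7 of 74 were called between male SCNT and IVF embryos, all lower, beside 3.64% of all genes. Adherens junction and desmosome genes made up 5 of the 7. JUP (plakoglobin, which links cadherins to the cytoskeleton) fell from 221 to 97.8 FPKM (-1.20, SE 0.17, limma adjusted p = 0.000777), and MLLT4 (afadin, an actin-binding partner of nectins) from 37.2 to 18.9 FPKM (-0.94, SE 0.18, adjusted p = 0.00478). CDH3 (-1.27), the nectin gene PVRL2 (-1.09) and PERP, a desmosomal protein (-0.99), fell too. The polarity gene PARD6B (-0.88, adjusted p = 0.0484) kept its call only without male IVF 2, male IVF 6 or male SCNT 1, and the cotransporter gene SLC12A2 (-1.02, adjusted p = 0.0480) only without male IVF 1 or 6; without any other single embryo both missed the threshold (adjusted p up to 0.103 and 0.0972). The 5 others stayed called without each single embryo. PVRL2 missed the threshold with the replicate block (adjusted p = 0.0576), and CDH3 and PERP did with all 6 groups in 1 fit (0.0743 and 0.142). JUP and MLLT4 held under every alternative run. MLLT4 was also called lower in sham than in IVF embryos, in males (-0.62, adjusted p = 0.0449) and females (-0.79, adjusted p = 0.0477). With 1 embryo left out, the male call was kept only without male IVF 6 or male sham 3. The female call was kept only without female IVF 3 or 5 or female sham 3. Between female SCNT and sham, MLLT4 was higher in SCNT (1.17, adjusted p = 0.0177), a call lost without female sham 4 (0.0523). Without female SCNT 5 and 6 that difference was 0.87 (adjusted p = 0.0381).

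In females 1 of 75 related genes was called between SCNT and IVF, where 0.21% of all genes were called higher. SCNN1A, a subunit of the epithelial sodium channel, was at 58.7, 66.4 and 102 FPKM in SCNT and at 16.4, 25.5 and 47.4 FPKM in IVF embryos, with no overlap (1.36, SE 0.25, limma adjusted p = 0.0303). It kept the call only without female IVF 4 or 6 or female SCNT 5 or 6 (adjusted p up to 0.0880 otherwise), and no related gene was called without female SCNT 5 and 6 together. The difference between the sexes in this contrast was called for 3 of 75 related genes (4%, beside 1.91% of all genes): SCNN1A (1.63), JUP (1.35) and MLLT4 (1.33). In males SCNN1A differed by -0.27 (adjusted p = 0.634), and in females JUP differed by 0.15 (adjusted p = 0.858) and MLLT4 by 0.38 (adjusted p = 0.611). These 3 interactions missed the threshold without male SCNT 1, those of SCNN1A and MLLT4 also without female IVF 3, and that of SCNN1A without male IVF 2 or without female SCNT 5 and 6 together (adjusted p up to 0.0659). The interactions of JUP (0.97) and MLLT4 (1.03) stayed called without female SCNT 5 and 6.

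Sham embryos differed from IVF in 13 of 74 related genes in males and 13 of 76 in females, with 5 and 4 higher and 8 and 9 lower. That is 17.6% and 17.1% of the related genes, beside 12.1% and 13.5% of all genes. CLIC1, a chloride intracellular channel gene, had the largest rise in males, from 1718 to 6441 FPKM (1.89, SE 0.28, limma adjusted p = 0.000410), and rose from 2496 to 7860.3 FPKM in females (1.65, SE 0.31, adjusted p = 0.00263). PERP fell in both sexes, by 2.08 (adjusted p = 0.000881) and by 1.76 on the log2 scale (adjusted p = 0.00510). CXADR, a junction protein and virus receptor (-1.20 and -1.45), and LSR, a protein of tricellular junctions (-1.07 and -1.33), fell in both sexes as well. LSR in males kept its call only without male IVF 4 or male sham 1, 2 or 3 (adjusted p up to 0.0818 otherwise); in females it went from 26.9 to 10.2 FPKM with an adjusted p of 0.00219. CTNNA1 has 2 rows in the table, which may share reads, and its first row was called in none of the comparisons. Its second row rose in male sham embryos from 187 to 474 FPKM (1.31, SE 0.23, adjusted p = 0.00165). In female sham embryos the second row rose from 267 to 426 FPKM (0.65, SE 0.20, adjusted p = 0.0441). With 1 embryo left out, that female call was kept only without female sham 1 or 5.

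Further related genes were called for sham against IVF in a single sex. In males MPDZ, a tight junction scaffold (1.41, adjusted p = 0.0461), FXYD4, a pump regulator (-1.60, adjusted p = 0.0473), and CDH3 (-1.23, adjusted p = 0.0491) were called. MPDZ kept its call only without male IVF 1 or 5 or male sham 1 or 4, FXYD4 only without male IVF 4 or 6 or male sham 2, 3 or 4, and CDH3 only without male sham 3 or 5. In females CLDN1 fell from 25.2 to 2.12 FPKM (-2.80, SE 0.69, adjusted p = 0.0143), with female IVF values of 4.63 to 90.8 FPKM. PARD6G, a polarity gene, rose from 0.144 to 4.07 FPKM (1.83, SE 0.44, adjusted p = 0.0112), and its difference between the sexes was called (3.02, SE 0.70, adjusted p = 0.0255), which was lost without any 1 of male sham 4 or 6 or female sham 2, 3 or 4 (adjusted p up to 0.0646). PVRL2 (-1.15, adjusted p = 0.0371) kept its call only without female IVF 6 or female sham 1 or 3.

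Between SCNT and sham embryos 15 of 75 related genes were called in males and 14 of 76 in females, 20% and 18.4%, beside 11.8% and 11.3% of all genes. CLDN10, the most abundant of the other claudins, was lower in SCNT in both sexes. It was at 0 to 18.6 FPKM in male SCNT and 17.3 to 141 FPKM in male sham embryos (-3.28, SE 0.64, limma adjusted p = 0.00300), and at 0.364 to 13.3 FPKM in female SCNT and 23.1 to 44.9 FPKM in female sham embryos (-2.49, SE 0.52, adjusted p = 0.00618). CLIC1 was lower as well (-1.66 and -1.98, adjusted p = 0.00205 and 0.00827). The second row of CTNNA1 was lower in male SCNT (-1.75, adjusted p = 0.000239), and CLDN1 (2.08, adjusted p = 0.00897) and the polarity kinase gene PRKCI (1.48, adjusted p = 0.0158) were higher. These genes stayed called without each single embryo, and CLDN1 missed the threshold with all 6 groups in 1 fit (adjusted p = 0.0602).

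In females LSR (1.66, limma adjusted p = 0.00190) and SCNN1A (1.43, adjusted p = 0.00214) were higher in SCNT than in sham embryos, and stayed so without each single embryo and without female SCNT 5 and 6. Less certain calls were PARD6G, higher in male SCNT (1.85, adjusted p = 0.0313) but lost without any 1 of male SCNT 4, 5 or 6 or male sham 3, 4, 5 or 6, and lower in female SCNT (-1.74, adjusted p = 0.0194) but lost without female sham 3 or 4 or without female SCNT 5 and 6 (adjusted p = 0.0567). FXYD6 (-1.62, adjusted p = 0.0385) and SCNN1G (-1.29, adjusted p = 0.0227) were lower in female SCNT embryos. FXYD6 lost its call without any 1 of female SCNT 2, 4, 5 or 6 or female sham 2, 3 or 4, and SCNN1G without any 1 of female SCNT 2 or female sham 2, 3 or 4. Without female SCNT 5 and 6 together their adjusted p were 0.101 and 0.0809. CLDN3, named after its values were seen, was called there too, but it was listed at 0 in all 5 female sham embryos, so that no fold change is given.

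**Figure D5:**
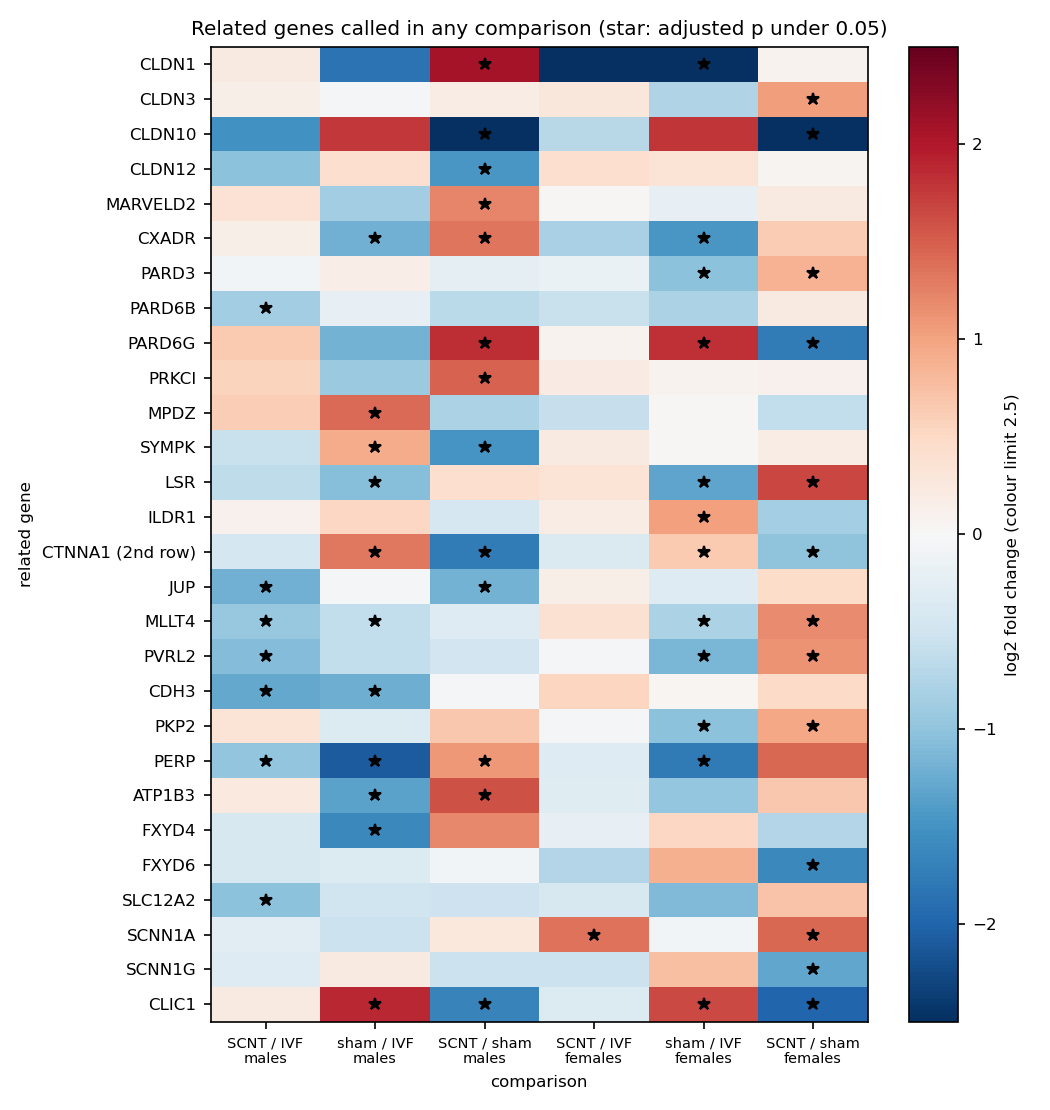
Log2 fold change of FPKM + 1 (colour, red higher and blue lower in the first group named, limited at 2.5) of 28 of the 30 related genes that were called in at least 1 of 6 comparisons (columns). Stars mark an adjusted p under 0.05; among others, CXADR, PERP and CLIC1 carry stars in both columns for sham against IVF, and the column for female SCNT against IVF holds 1 star.

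The cell type markers were read in the same way. The summed trophectoderm markers ran from 5347 to 7722 FPKM in male IVF, 3267 to 8840.4 in male SCNT and 3342 to 7663 in male sham embryos, and from 1918 to 9826 in female IVF, 3008 to 8192 in female SCNT and 3578 to 6483 FPKM in female sham embryos. These ranges overlapped in each sex. The inner cell mass markers summed to 54.8 to 138 FPKM in male sham and 76.7 to 90.6 FPKM in female sham embryos, against 101 to 144 and 111 to 232 FPKM in IVF embryos, and of that list of 6 POU5F1 and KLF4 were called lower in sham embryos of both sexes, while LIN28A was called higher in female sham embryos. Against sham, POU5F1 was higher in SCNT embryos of both sexes and KLF4 and SALL4 in female SCNT embryos, and KLF4 was lower in male SCNT against IVF embryos. Of 13 trophectoderm markers GATA3 was called higher and GATA2 and TEAD4 lower in male SCNT against IVF embryos, and CDX2 and TFAP2C higher in male SCNT against sham embryos. TFAP2C was called lower in male sham, and TEAD4, IFNT and IFNT2 lower in female sham against IVF embryos, the IFNT genes being near copies whose reads may be shared; TEAD4 and IFNT2 were higher in female SCNT against sham embryos. Of 5 primitive endoderm markers, GATA6 was called higher in male SCNT embryos against both IVF and sham and in female SCNT against sham embryos, and lower in female sham against IVF embryos. GATA4 was called lower in male sham against IVF embryos. The 5 primitive endoderm markers summed to 198 to 366 FPKM in male SCNT, 108 to 207 FPKM in male IVF and 82.8 to 206 FPKM in male sham embryos. In females the sums were 163 to 289.6, 138 to 272 and 98.8 to 219.8 FPKM in SCNT, IVF and sham embryos. The same markers summed to 151 and 79.7 FPKM in the male and female fibroblasts, and SOX17 was listed at 0 in all SCNT and sham embryos. Of the 11 fibroblast markers COL1A1 and COL1A2 were lower in male SCNT and THY1 higher in female SCNT against sham embryos, and of 8 oocyte markers GDF9 was lower in the latter. The part of such differences in the junction and pump genes was not tested.

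Within groups the 8 genes did not vary as 1 set. After subtraction of the group means, Pearson correlations on the log2 scale over the 35 embryos were 0.54 for CLDN4 with CLDN7, 0.45 for CLDN4 with CLDN6 and 0.45 for CLDN6 with CLDN7, while the correlation of OCLN with AQP3 was -0.39. TJP1 and CDH1 had 0.47, and 0.19 without female SCNT 6. These are descriptions over embryos of which all males shared their flow cells, as did all females, and they carry no test.

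Over 11154 genes with a mean above 1 FPKM, the genes most like each of the 8 by the same measure were ACTG1 (0.77) and UBE2D3 (0.76) for CLDN4, CD151 (0.755) and PIGC (0.70) for CLDN6, and LGALS1 (0.69) and CD63 (0.68) for CLDN7. For OCLN they were ABHD2 (0.75) and SLC10A1 (0.74), for TJP1 XPO6 (0.88) and CBLL1 (0.86), and for CDH1 GAPVD1 (0.86) and DNM2 (0.79). For ATP1B1 they were TPMT (0.71) and PAQR8 (0.66) and for AQP3 TUBA3E (0.78) and SNX15 (0.68). Being the highest of 11154 values, these correlations are a selection.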

How the data were processed

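Poly-A RNA of single blastocysts was amplified by pico-profiling and sequenced by paired-end Illumina runs. Per the labels and the study's methods, the authors trimmed reads with Trim Galore, aligned them with TopHat to UMD3.1 and estimated the deposited FPKM values with Cufflinks against known transcripts. Cuffdiff is named too. Versions are not given in the sources used here. FPKM is divided by transcript length and library size, so that a few abundant genes can shift all others, and amplification from single embryos adds scatter to low genes. The depth of each library is not in the table. The relative depth read from steps of low values was 0.369 to 1.45 with the male IVF embryo 1 set to 1, but 11.8% to 20.5% of those values fell on 1 ratio, so that whole reads could not be recovered. By this rough measure female sham embryos were at 0.429 to 0.824, below female IVF embryos at 0.871 to 1.45. Male sham embryos were at 0.536 to 0.801, and female SCNT 5 and 6 at 0.369 and 0.514. The part of depth in the differences was not tested.

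Groups came from the sample labels. Values were tested as log2(FPKM + 1) with limma 3.58.1 (R 4.3.3; lmFit, eBayes with trend; 2-sided) over rows with a mean above 0.1 FPKM in the groups compared, 14783 to 15425 rows, with Benjamini-Hochberg adjustment over all of them and a threshold of 0.05. Each comparison was fitted on its own 2 groups within a sex, and the interaction with sex on 4 groups. The code was tested on simulated data. Levels and plots were made with Python 3.11.15, pandas 2.3.3, numpy 2.4.6 and matplotlib 3.10.9. No 2 libraries were counted as repeats.

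The text names all 8 genes, at most 8 called related genes per comparison by size of change, the most abundant related claudins, pump subunits and aquaporins, and the 2 genes most correlated with each of the 8. Further calls of MLLT4 and of the second row of CTNNA1 were named after their values were seen. The 8 genes and the lists were chosen with earlier results of these data known. Alternatives were a pseudocount of 0.1, a filter at a mean of 1 FPKM, no filter, median centring, upper quartile scaling, no trend, all 6 groups in 1 fit, the replicate number as a block and each embryo left out. Leaving out female SCNT 5 and 6 was added after seeing the data. No coordinates or sequences are printed, since no genome of the files' build was used here. Some related genes are counted but not reported here by name.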

Additional observations from a re-analysis of the deposited data

Results flagged for a closer look

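Single embryos stood apart from their group in 3 of the 48 sets of values examined for an outlying embryo by Dixon's test at the 95% level, a rate at which about 1 set in 20 is picked by chance. TJP1 was at 528 FPKM in female SCNT 6, whose 5 companions had 127 to 188 FPKM. CDH1 was at 1976 FPKM in the same embryo, against 538 to 678 FPKM in the others. AQP3 was at 129 FPKM in female SCNT 5, with the other 5 embryos at 66.3 to 84.2 FPKM. These are the 2 embryos with the lowest median correlation with their group. Their part in the values was not tested beyond leaving them out.

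The effect of SCNT or sham differed between the sexes for 4 related genes, by limma's interaction test, females minus males. These were 3 of 75 tested for SCNT minus IVF (4%, beside 1.91% of all genes) and 1 of 77 for sham minus IVF (1.3%, beside 1.22%, and so at the share of all genes). For SCNT minus IVF these were JUP (1.35, SE 0.32, adjusted p = 0.0296), MLLT4 (1.33, SE 0.31, adjusted p = 0.0270) and SCNN1A (1.63, SE 0.39, adjusted p = 0.0295). For sham minus IVF it was PARD6G (3.02, SE 0.70, adjusted p = 0.0255), at 0.144 FPKM on average in female IVF and 4.01 FPKM in male IVF embryos. Each of the 4 missed the threshold without some single embryo, as given with its values above. Sex cannot be told apart from flow cell here, nor, for SCNT, from the donor cells.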

How the results depend on the processing

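Among the single values of the 8 genes, 523 of 536 kept their direction and side of the threshold under the alternatives that kept every embryo or left out female SCNT 5 and 6, and 886 of 936 did with 1 embryo left out. The cause of the exceptions was not tested. All 96 group levels moved by less than 1 SD under both scalings, and neither scaling shifted the median of all genes by over 0.1. The direction turned, never in a called value, for OCLN in male sham against IVF with upper quartile scaling (-0.0244), for CLDN6 in female sham against IVF (0.0658) and OCLN in female SCNT against sham (-0.0055) with median centring, and for TJP1 without female SCNT 5 and 6 in female SCNT against IVF (-0.24) and against sham (-0.031).

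With 1 embryo left out, values that turned ranged from -0.36 to 0.16 for CLDN4 and -0.16 to 0.25 for TJP1 in female SCNT against IVF, from -0.0699 to 0.0803 for OCLN, -0.40 to 0.63 for ATP1B1 and -0.0238 to 0.2889 for CLDN7 in male sham against IVF, and from -0.0744 to 0.0834 for CLDN6 in female sham against IVF. They ranged from -0.21 to 0.085 for AQP3 in male and -0.0495 to 0.14 for OCLN in female SCNT against sham, and in the sham interaction from -0.32 to 0.13 for AQP3, -0.19 to 0.13 for TJP1 and -0.01 to 0.34 for CDH1.

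Of the 8 genes, male SCNT against IVF called 3 with a filter at 1 FPKM, 0 with no filter and 0 with no trend (0 to 3 with 1 embryo left out). Female sham against IVF called 1 with a filter at 1 FPKM and 1 with median centring (0 to 1 with 1 embryo left out), and male sham against IVF 0 to 1 with 1 embryo left out. Over all genes, female SCNT against IVF called 49, but 75 with a filter at 1 FPKM, 1 with no filter, 136 with all 6 groups in 1 fit and 1 to 57 with 1 embryo left out. The SCNT interaction called 181 genes without female SCNT 5 and 6 and 147 to 311 with 1 embryo left out, and the sham interaction 110 to 238. Of the related genes, female SCNT against IVF called 0 with no filter and 0 without female SCNT 5 and 6, female SCNT against sham 9 with no filter, and the sham interaction 2 with no filter and 2 with all 6 groups. With 1 embryo left out the related calls were 5 to 8 and 0 to 1 for male and female SCNT against IVF, 7 to 13 and 9 to 14 for male and female sham against IVF, 13 to 16 and 6 to 13 for male and female SCNT against sham, and 0 to 5 and 0 to 3 for the interactions. All-gene calls then were 709 to 970 for male SCNT against IVF, 1411 to 1952 and 1525 to 2072 for male and female sham against IVF, and 1382 to 1778 and 1176 to 1725 for male and female SCNT against sham.

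The replicate numbers of the labels did not pair the embryos: same-numbered embryos correlated between -0.239 and 0.0767 after subtraction of group means. With the replicate block, the 8 genes had 2 calls in male SCNT against IVF and 0 in female SCNT against sham, where AQP3 was lost. All-gene calls under the replicate block were 652 and 20 in male and female SCNT against IVF, 1306 in female sham against IVF and 1060 in female SCNT against sham, and related calls 4 and 0 in male and female SCNT against IVF, 9 in female SCNT against sham and 0 in the sham interaction.

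The FPKM table gives no reads per gene, and how far depth limits a low gene such as ATP1B1 was not tested.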
